A study of Mus musculus with 12 samples.

Results

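Open chromatin that lay between genes, more than 1 kb and up to 50 kb from the nearest annotated transcript start, was described in mouse hematopoietic stem cells (HSCs). Peak summits with a deposited score of at least 3 on chromosomes 1 to 19 and X were widened by 250 bp on each side, and the windows were merged over all 12 libraries. Each merged region took the position of its highest summit, and it was kept when that position lay outside every annotated gene. The rule used position alone, and it kept 18676 of 70945 regions, or 26.3%. Another 28089 regions lay in introns, 18358 within 1 kb of a start, 3138 in intergenic DNA beyond 50 kb and 2684 in exons.

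The assay was ATAC-seq, a transposase-based tagging of open DNA, on HSCs sorted from bone marrow of C57BL/6 mice. WT and Mlkl-/- mice were each sampled young, at 3 months, and aged, at 18 months, which gave 4 groups of 3 libraries. Mlkl-/- mice lack MLKL, the pseudokinase that executes necroptosis, and the labels name no other allele or agent. Per the study's methods each library came from cells pooled over several mice, more mice for a young than for an aged library. Animals of both sexes were used in the study, with the make-up of each pool not given in the sources used here. The p-values therefore measure the spread between pools.

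Intergenic open regions at such distances include enhancers, short stretches of DNA that transcription factors bind to raise the activity of a gene some distance away, and insulators, which the factor CTCF binds. In HSCs, factors of the ETS, RUNX, GATA and AP-1 families occupy many of the known enhancers. An open region at this distance may act on a gene other than the nearest one, and so each gene named below is only a position.

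The sequences of 7 regions are shown because the results below turn on them: the 3 regions that ranked highest at 18 months relative to 3 months, the 2 with the largest opposite difference, and 1 region each near Vwf and Cxcr4 that passed the test for age. Each run is the plus strand of GRCm38 (mm10), 50 bases on each side of the summit. Capitals mark matches to the motifs searched.
Trhr region, chr15:44176106-44176206: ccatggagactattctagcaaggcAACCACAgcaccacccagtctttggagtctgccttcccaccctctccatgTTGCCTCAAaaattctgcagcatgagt
Gm38839 region, chr6:81738271-81738371: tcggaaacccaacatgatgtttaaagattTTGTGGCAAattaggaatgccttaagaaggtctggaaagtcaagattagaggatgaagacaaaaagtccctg
Gm16042 region, chr6:8623163-8623263: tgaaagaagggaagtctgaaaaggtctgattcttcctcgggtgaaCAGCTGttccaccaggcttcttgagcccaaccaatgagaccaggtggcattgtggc
Gm44818 region, chr7:43554650-43554750: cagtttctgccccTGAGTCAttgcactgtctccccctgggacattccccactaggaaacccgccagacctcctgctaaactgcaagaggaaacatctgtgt
Gm25256 region, chr10:19815504-19815604: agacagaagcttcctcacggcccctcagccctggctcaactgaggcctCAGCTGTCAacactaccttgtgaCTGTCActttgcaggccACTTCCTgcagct
Vwf region, chr6:125540925-125541025: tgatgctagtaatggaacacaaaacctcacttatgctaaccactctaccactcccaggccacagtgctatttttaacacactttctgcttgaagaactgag
Cxcr4 region, chr1:128613203-128613303: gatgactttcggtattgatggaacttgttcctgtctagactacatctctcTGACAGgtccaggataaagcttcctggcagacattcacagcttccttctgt
The Trhr region held a RUNX match, AACCACA, and a C/EBP match, TTGCCTCAA, and the Gm38839 region a C/EBP match, TTGTGGCAA. The Gm44818 region held an AP-1 match, TGAGTCA. In the Gm25256 region an E-box, CAGCTG, overlapped a MEIS match, CTGTCA, a further MEIS match followed, and an ETS match, ACTTCCT, lay nearest the edge. The Vwf window held none of the letters searched.

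The regions were narrow and spread over the genome. Their median width was 580 bp, between 501 and 2363 bp, and the median distance to the nearest start was 12.3 kb with quartiles of 5.92 and 22.9 kb. Of all members, 62.3% lay upstream of that start. The nearest start belonged to a protein-coding gene for 42.0%, to a processed pseudogene for 20.03% and to a lincRNA for 16.9%, and 70.1% had a protein-coding start within 50 kb. Chromosome 11 held 9.51 members per Mb and chromosome X 3.30 per Mb, the highest and lowest of the 20 chromosomes. At the inner edge of the rule, the 126 members between 1000 and 1100 bp from a start and the 124 intergenic regions between 900 and 1000 bp were called in 12 equal-length lists in 13.5% and 16.9% of cases. At the outer edge, the shares were 13.1% for the 198 members between 48 and 50 kb and 10.7% for the 169 regions between 50 and 52 kb.

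Members were spread over many stretches between genes, and clustering was not tested. They fell into 10234 stretches between neighbouring genes, of which 5825 held 1 member and 493 held 5 or more, and those 493 held 15.8% of all members. The stretch between Hrh1, a histamine receptor gene, and Atg7, an autophagy gene, held the most, with 20 members on chromosome 6 in 159.8 kb. None of these was called in all 12 deposited lists, and every one of them shared at least 1 run of 25 bases with another of the 20. Next came the stretch between Gm25283 and Rny3, a Y RNA gene, which runs from 41.9 kb beyond Ezh2 towards Pdia4. It held 19 members, of which 17 were in all 12 deposited lists and 17 shared a 25-base run with another. A run of 25 bases is shorter than the reads of the study, and the placement of reads was not examined. Whether the members that share runs are separate sites was therefore not tested. In 3 further stretches no member shared a run with another: 12 members lay beside Irf2, an interferon regulatory factor gene, 12 between Rpn1 and the neighbourhood of Gata2, a stem cell transcription factor gene, and 11 between Bhlhe40 and Arl8b. Of these, 5, 4 and 4 were in all 12 lists. The last tied with 2 other stretches of 11 members, between Gm11211 and Gm24117 and between Gm49031 and Gm33299, which were not searched for shared runs.

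Most members were not shared by all libraries. In the deposited lists 3436 members, or 18.4%, were called in all 12 libraries and 3728, or 19.96%, in 1 library. Because the lists differed in length, each was also cut to the 35696 top-scoring summits that the shortest one held. In these equal-length lists 2389 members, or 12.8%, were called in all 12, against 12.2% of intronic regions, 10.1% of intergenic regions beyond 50 kb and 49.5% of regions within 1 kb of a start. A total of 5629 members were in none of the equal-length lists. Neither the share in all 12 lists nor the share in 1 list changed by much with distance from the start: the first was 13.4% at 1 to 2 kb and 12.03% at 20 to 50 kb, and the second 20% and 20.8%.

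The 10 strongest members were picked by their mean rank over all 12 equal-length lists. All 10 were called in each of these lists, which follows largely from that choice. The first, 27.3 kb from the pseudogene Gm9075 on chromosome 12, had deposited scores between 245 and 262 in the young and between 247 and 262 in the aged libraries, and its whole window was marked as repeat sequence in the reference. The next 3, nearest to Gm47397, Gm43393 and Abcb11, shared 89.3%, 71.2% and 59.3% of their 25-base runs with the mitochondrial genome. Only 4 of all members shared any such run with it. For these 10 regions, the rank was much the same at both ages, with age differences between −0.12 and 0.16 and none past the threshold. A choice by mean rank over both ages favours such regions.

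Each library placed a similar share of its list in these regions. The share of summits was 20.2, 19.1 and 18.3% in young WT (19.2% ± 0.943, SD, n = 3) and 20.9% ± 1.15 in aged WT. In Mlkl-/- it was 19.96% ± 2.55 in young and 21.1% ± 0.491 in aged libraries. The groups overlapped. Over both genotypes the aged libraries had 1.44 percentage points more of their list in these regions than the young (exact permutation of age within genotype, two-sided p = 0.12, 400 labellings, smallest possible p 0.005). The difference between genotypes was 0.481 points (exact permutation p = 0.615), and the difference in age change between genotypes −0.54 points (exact permutation p = 0.79). In lists of equal length the age difference was 0.586 points (exact permutation p = 0.385) and the genotype difference 0.876 points (exact permutation p = 0.205). The number of members called was higher with age in the deposited lists, 7669 ± 1236 in young WT and 8696 ± 2967 in young Mlkl-/- against 10498 ± 1498 and 10757 ± 1544 in the aged groups (SD, n = 3 each). That difference of 2445 members had an exact permutation p of 0.03, and the lists themselves were longer by 10558.5 summits with age (exact permutation p = 0.025). In equal-length lists the difference was 214 members (exact permutation p = 0.395). Depth was unknown, since the lists hold no reads, and fewer open cells cannot be told apart from less open DNA in each cell.

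**Figure D1:**
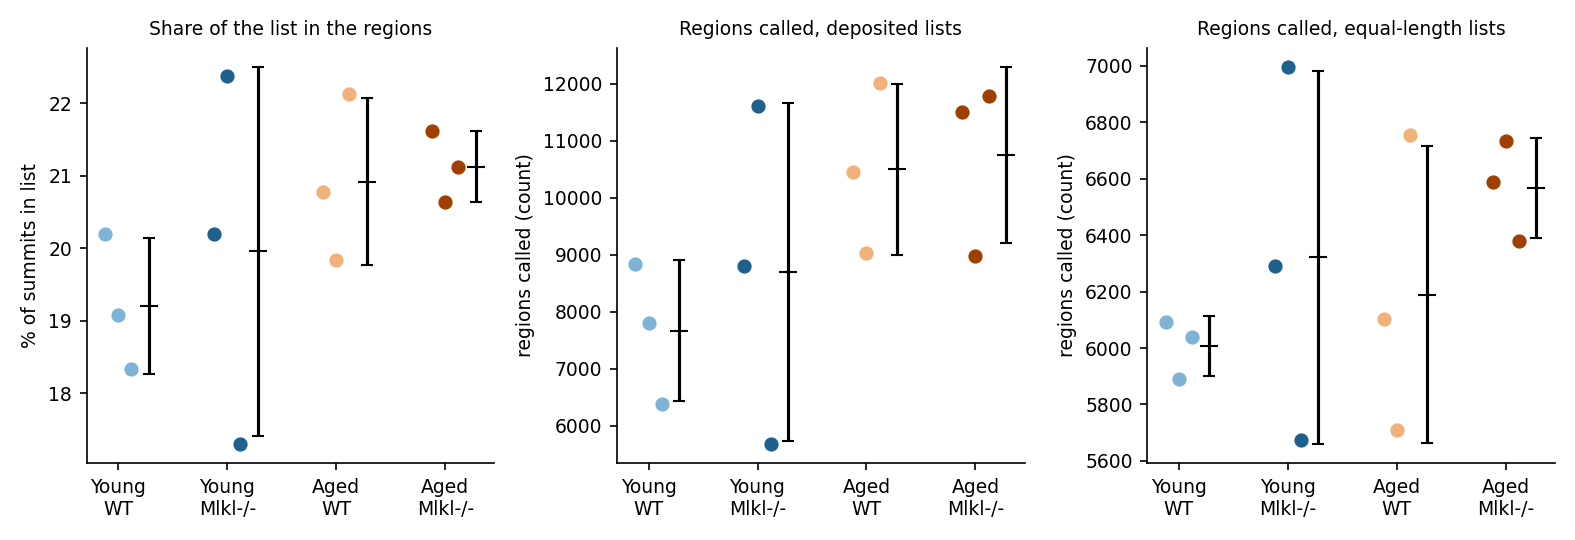
Points are libraries and black marks are group means with SD (n = 3), by group on the x axis. The left panel gives the percent of each list in the regions, the middle panel the number of regions called in the deposited lists and the right panel the number in lists of equal length. The aged group means lie higher in the middle panel, and libraries of both ages overlap in each panel, on axes that do not start at 0.

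Relative openness was compared by rank. Within each equal-length list all 70945 regions were ranked by their highest score and ranks were turned into normal scores, in which uncalled regions share a value between −0.57 and −0.53. The mean normal score of the 8663 members called in at least 3 lists was 0.357 in the young and 0.389 in the aged libraries (exact permutation p = 0.24). Members ranked 0.00930 above intronic regions on average, in every library but Young WT 2 (two-sided sign-flip exact permutation over 12 libraries, p = 0.00146). Without Aged Mlkl-/- 3 this difference was 0.00572 (exact permutation p = 0.0625). Over the 12 libraries the mean was 0.373 for members and 0.928 for regions within 1 kb of a start. The age change of members differed by −0.00906 from that of intronic regions and intergenic regions beyond 50 kb combined (exact permutation p = 0.15).

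At 18 months 197 members ranked higher and 107 lower than at 3 months, in a fit over all 37861 regions tested (limma, Benjamini-Hochberg adjusted p under 0.01). These 304 were 3.51% of the 8663 members tested, and 2.70% of all tested regions passed, 1.70% higher and 1.0% lower. The shares were 3.91% in introns, 6.48% beyond 50 kb and 0.717% within 1 kb of a start. The median age difference was 0.02 over members and −0.01 over all tested regions. The number past the threshold was smaller when measures that differed with age were in the fit. With the length of each list in the fit 20 members remained, 16 higher and 4 lower, all of them among the 304. With the presence or absence of summits at Y-linked genes in the fit, 106 members passed, 88 of them among the 304. Such summits were present in 3 of 6 young and 0 of 6 aged lists. In the 9 libraries whose file names carry an unexplained tag 70 passed, 68 of them among the 304, and without Aged Mlkl-/- 2 there were 202. The part of list length and of sex in the age differences cannot be told apart from age in this design.

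The members that ranked higher with age had a coding start within 50 kb less often than the others. Of the 197, 83 had a protein-coding start within 50 kb, or 42.1%, against 72.9% of the 107 lower members and 70.1% of all members. Among members within 10 kb of a coding start 0.736% ranked higher and 1.26% lower. The share ranked higher was 1.65% at 10 to 50 kb, 3.98% at 50 to 200 kb and 6.00% beyond 200 kb, while the share ranked lower stayed between 1.06 and 1.37%. GC content moved with the same calls. Of members with at most 40% GC around the summit 6.65% ranked higher and 0.238% lower, and of members with over 60% GC 0.611% ranked higher and 0.611% lower. The part of GC content in the differences with distance was not tested. Neither trait was confined to members. Of intergenic regions beyond 50 kb from any start, 5.66% ranked higher and 0.820% lower. The 644 higher regions of any class, members included, had a median GC content of 46.8%, beside 54.2% for all tested regions.

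**Figure D2:**
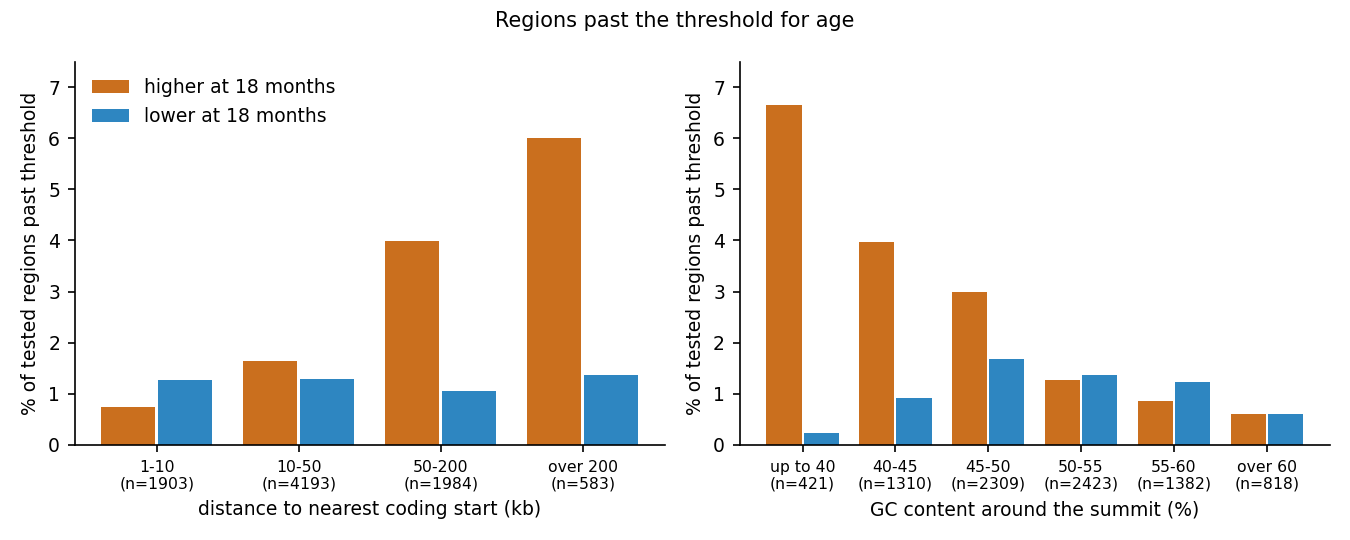
Bars give the percent of tested regions past the threshold for age, higher (orange) or lower (blue) at 18 months, by distance to the nearest protein-coding start (left, kb) and by GC content within 100 bp of the summit (right, %), with the number tested under each bar. The share higher goes from 0.736% within 10 kb to 6.00% beyond 200 kb, and from 6.65% at the lowest to 0.611% at the highest GC content.

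The same shift was visible in whole libraries without any threshold on single regions. Members over 200 kb from a coding start made up between 5.98 and 6.18% of the members called in the 6 young equal-length lists and between 6.81 and 7.43% in the 6 aged lists, so the ages did not overlap. The difference was 0.996 points (two-sided exact permutation p = 0.005, the smallest possible, and 0.015 adjusted over 6 measures). Mean GC content of the members called was 51.6% ± 0.261 in young and 51.0% ± 0.277 in aged lists (SD, n = 6), lower by 0.54 points on average (exact permutation p = 0.005, adjusted 0.015). Here the ages overlapped, since Aged WT 2 at 51.5% lay above Young Mlkl-/- 1 and 2 at 51.3 and 51.2%. The shares on chromosome X (exact permutation p = 0.125), with an AP-1 match (p = 0.895), with a CTCF match (p = 0.83) and with a RUNX match (p = 0.83) did not differ beyond the spread between libraries. These 6 measures were chosen after the region results were seen and rest on the same lists. Intergenic regions beyond 50 kb of a start also held 0.722 points more of the deposited lists with age (exact permutation p = 0.005).

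**Figure D3:**
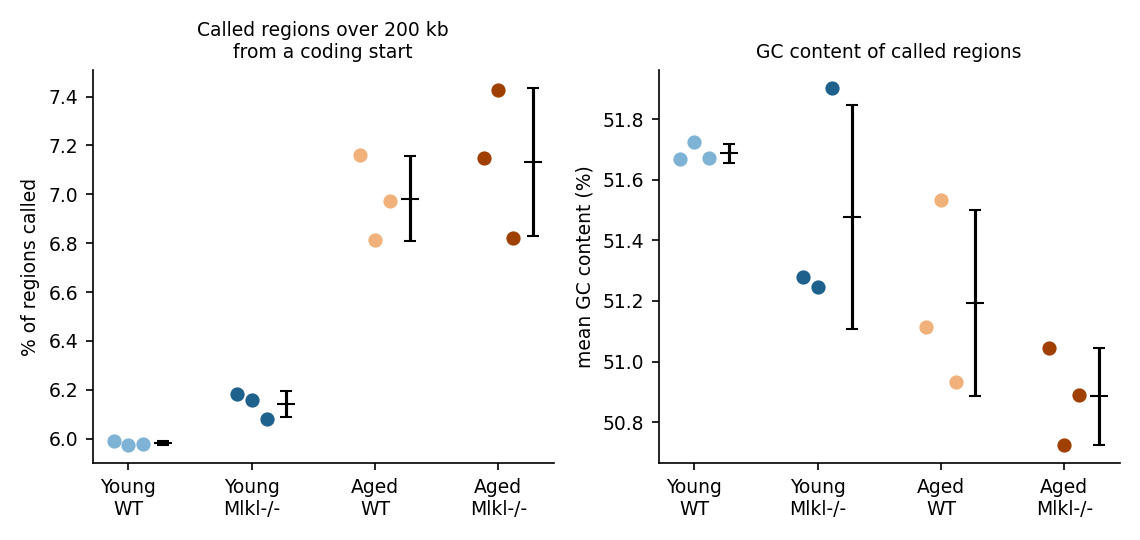
Points are libraries by group and black marks are means with SD (n = 3). The left panel gives the percent of called regions that lie over 200 kb from a protein-coding start, with all young libraries at or below 6.18% and all aged libraries at or above 6.81%. The right panel gives their mean GC content, which spans 51.2 to 51.9% in young and 50.7 to 51.5% in aged libraries, and neither y axis starts at 0.

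The largest increase lay 20 kb upstream of Trhr, the gene of the thyrotropin-releasing hormone receptor, at chr15:44175863-44176406. Its deposited scores were 0 in all 6 young libraries, 33.2, 18.8 and 48.6 in aged WT and 37.6, 20.8 and 35.1 in aged Mlkl-/-. The region was thus called in every aged library and in no young one. The change in normal score was 2.07 ± 0.21 (SE, limma adjusted p = 2.51e-05). It was 2.17 in WT and 1.97 in Mlkl-/-, and the difference between the genotypes was −0.20 ± 0.43 (limma adjusted p = 0.967).

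Other members with the largest increases lay near non-coding genes. The region 23.1 kb from the lincRNA Gm38839 had a median score of 0 in young (highest 7.24) and of 29.4 in aged libraries (18.9 to 53.5), a change of 2.02. The region 26.2 kb from Gm16042 had a highest young score of 5.32 and aged scores of 21.4 to 56.8, a change of 1.95. The regions with the largest changes were picked among those whose ranks did not overlap between the ages, so that separation is no result. The region 34.5 kb from Gm11901 was called in 4 young libraries with scores up to 6.90 and ranked 1.95 higher with age. The region 1.93 kb from the pseudogene Gm48470, over 1 Mb from the coding gene Nr2f1, was at 0 in every young library and at 18.7 to 36.9 in the aged ones. The region 5.40 kb from Gm26819 and 11.6 kb from Med10, a gene of the Mediator complex, ranked 1.91 higher with age, with young scores of at most 5 and aged scores of at least 23.6. All 6 regions named here, the Trhr region included, passed in each of the 12 fits that left out 1 library and with list length or Y-gene summits in the fit.

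The largest decrease lay 6.62 kb from the lincRNA Gm44818 and 7.56 kb from the coding gene Zfp658. Its scores were 32.7, 15 and 17 in young WT, 27, 23.6 and 13.9 in young Mlkl-/-, 4.62, 4.34 and 3.36 in aged WT and 6.17, 5 and 8.55 in aged Mlkl-/-. It was called in every deposited list but in no aged list of equal length (−1.80 ± 0.20, SE, limma adjusted p = 6.64e-05). The decreases named here were likewise picked among regions without overlap between the ages. The region 32.7 kb from the snRNA gene Gm25256 and 35.9 kb from Slc35d3 had scores of 13.6 to 24.9 in young and of 0 to 7.08 in aged libraries, a change of −1.62. The region 11.6 kb upstream of Gdi2, which encodes a regulator of Rab GTPases, was at 8.55 to 22.8 in young and at 0 in all aged libraries (−1.49). Regions 25.4 kb from Gm31630 and 6.50 kb from AC107664.2, the latter 14.5 kb from Smchd1, a gene of X-chromosome silencing, changed by −1.48 and −1.46. Only the Gm44818 and AC107664.2 regions kept an adjusted p under 0.01 (limma, 0.00346 and 0.00379) with list length in the fit, and the latter lost it with Y-gene summits in the fit (limma adjusted p = 0.0209).

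**Figure D4:**
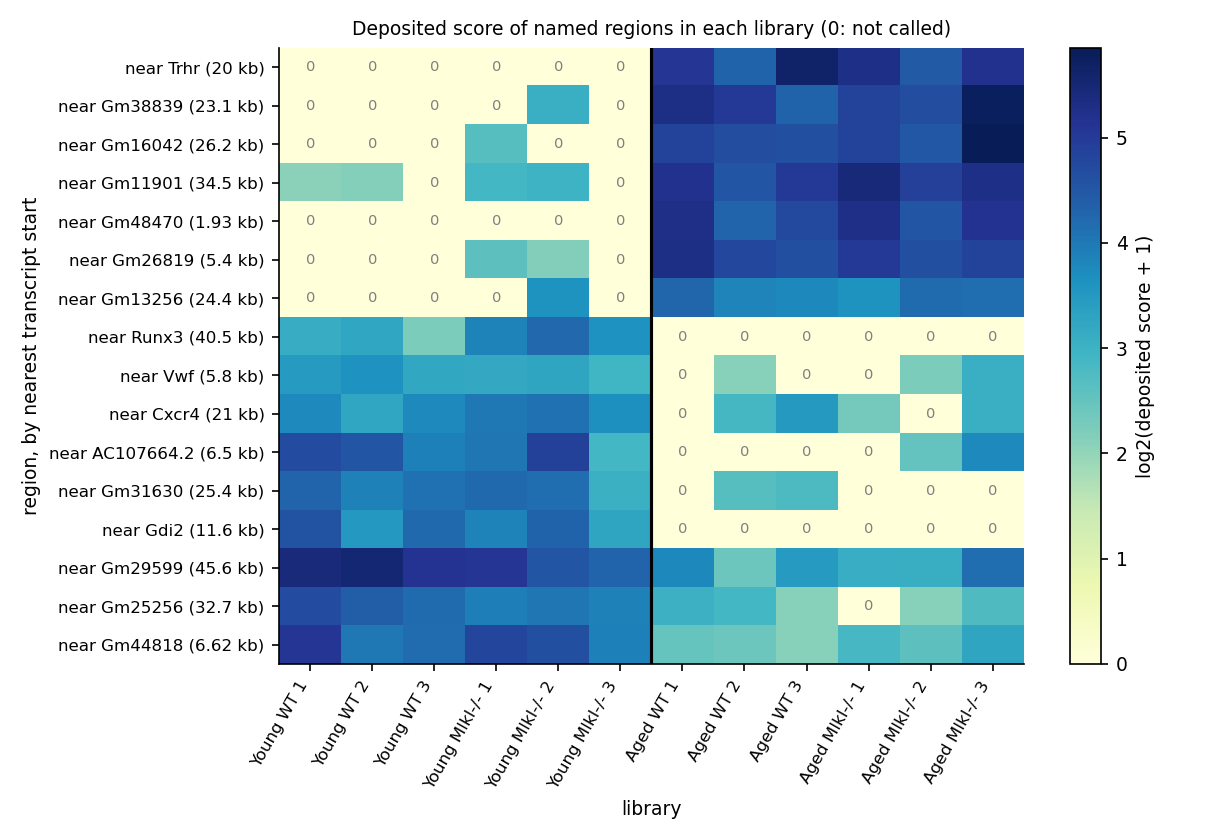
Colours give log2(deposited score + 1) in each of the 12 libraries (columns, young to the left of the line) for 16 named regions past the threshold for age (lines, by nearest transcript start and its distance), and 0 marks a library in which the region was not called. The regions near Trhr and Gm48470 are at 0 in all 6 young libraries, and those near Gdi2 and Runx3 at 0 in all 6 aged libraries.

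Regions called in every library of 1 age and none of the other were counted in the deposited lists. There were 178 members in all 6 aged and no young lists, or 0.953% of members (0.841% of all regions), and 14 in all 6 young and no aged lists, or 0.0750% (0.0550% of all regions). In equal-length lists there were 80 members, or 0.428%, on the aged side (0.366% of all regions) and 45, or 0.241%, on the young side (0.186% of all regions). Besides those named above, the regions called only in aged lists with the largest change lay near Gm4374 (1.76), Gm9816 (1.68), Gm43254 (1.66) and Trp53-ps (1.61). Those called only in young lists lay near AC154685.1 (−1.39), B4galt5, a glycosphingolipid synthesis gene (−1.32), Gm15782 (−1.32), Gm49008 (−1.27) and Gm17041. The last, 9.58 kb from Cish, a feedback inhibitor of cytokine signalling through STAT factors, changed by −1.17, with young scores of 6.92 to 12.5.

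Within each genotype fewer members passed. In WT 26 members passed, 23 higher and 3 lower (0.201% of all tested regions passed, 0.156% higher and 0.0449% lower), and in Mlkl-/- 20 passed, 17 higher and 3 lower (0.151% of all tested regions passed, 0.140% higher and 0.0106% lower). None of the 26 or of the 20 had the opposite sign in the other genotype, and 65.9% of all tested members had the same sign in both. The 2 sets shared 13 members, 50% of the WT and 65.0% of the Mlkl-/- members. Both counts were 0 when each genotype was fitted separately or when percentiles replaced normal scores, and with list length in the fit they were 0 in WT and 1 in Mlkl-/-. The count in WT was 0 without Aged WT 1 and between 2 and 13 without any other of the Young WT, Aged WT or Aged Mlkl-/- libraries. The count in Mlkl-/- was 0 without Aged Mlkl-/- 2 or 3, and between 1 and 12 without Aged Mlkl-/- 1, Aged WT 1 or 3, or any Young Mlkl-/- library. The region 6.75 kb upstream of Ifnlr1, an interferon lambda receptor gene, had scores of 36.7, 23.5 and 22.6 in young and 7.98, 5.92 and 8.38 in aged Mlkl-/- libraries, a change of −1.81 ± 0.24 (SE, limma adjusted p = 0.00209). In WT it changed by −0.74 ± 0.24 (limma adjusted p = 0.116). The region 32.6 kb upstream of Cyp2j5, a cytochrome P450 gene, changed by −1.67 in Mlkl-/- (limma adjusted p = 0.00807) and by −0.04 in WT. For both regions the difference between genotypes did not pass (limma adjusted p = 0.965). The WT and Mlkl-/- ageing contrasts share no library, but they come from the same fit, variance estimates and filter over all 12 lists.

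Loss of Mlkl changed the rank of no member past the threshold. Neither the genotype comparisons, made at 3 months, at 18 and with the ages pooled, nor the difference in age change between genotypes had a member past the threshold (limma, 0% of all tested regions in each). Unadjusted p-values under 0.05 were reached by 537, 452, 617 and 484 members, or 6.20, 5.22, 7.12 and 5.59% of those tested, where 5.32, 5.09, 6.23 and 4.76% of all tested regions reached it. The lowest unadjusted p for genotype over both ages lay 8.23 kb from Tgfbi, an extracellular matrix gene. Its scores were 49.9, 41.4 and 36.4 in young WT against 28.3, 27.1 and 21.2 in young Mlkl-/-, and 53.1, 28.3 and 29.6 in aged WT against 22.0, 20.3 and 31.8 in aged Mlkl-/-. The young groups did not overlap and the aged ones did, and the change was −0.63 ± 0.14 (SE, limma adjusted p = 0.763). The next lay 46.3 kb from Dct, a melanin synthesis gene (1.02 ± 0.25, SE, limma adjusted p = 0.763). For the difference in age change, the region 70.6 kb from Lsm6 was at 12.7, 10 and 8.83 in young WT, 0 in all young Mlkl-/-, and at 9.49 to 21.7 in aged libraries (1.56 ± 0.36, SE, limma adjusted p = 0.965). The region 72.2 kb from Rab38 came next, at −1.90 ± 0.44. The member nearest to Mlkl itself, 5.27 kb upstream at chr8:111343157-111343787, was called in all 12 deposited lists with scores between 4.17 and 15.5. Its difference between genotypes was 0.52 ± 0.28 (SE, limma adjusted p = 0.765). A summit list says nothing of the allele, so this was no check of the knockout.

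The members called in a pair of libraries were more alike within an age than between ages. The Jaccard index, the number of members called in both lists over the number called in either, was 0.584 on average for pairs of the same age and 0.523 for pairs of different ages (difference 0.0613, two-sided exact permutation p = 0.005, the smallest possible). For genotype the difference was −0.00146 (exact permutation p = 0.96). These comparisons share their lists with those above and are no independent evidence.

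Genes of stem cell transcription factors had 38 members nearest to them, at 16 of 25 genes, and 26.3% were in all 12 deposited lists, against 18.4% of all members with a coding start within 50 kb. Of the 22 tested none passed for age, beside 2.70% of all tested regions. A count of 0 in a list of this size is no result about the list. The median change of the 22 was −0.08 beside −0.01 over all tested regions. The strongest lay 3.12 kb from Nfe2, 14.9 kb from Fli1, an ETS factor of stem cells and megakaryocytes, and 27.2 kb from Hlf, a regulator of HSC maintenance. They had median scores of 40.9, 37.8 and 28.8 in young and 40.6, 41.4 and 33.5 in aged libraries, with the ages overlapping at each. Gata2, Lmo2 and Fli1 had 5 members each.

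Among genes of stem cell surface and signalling molecules 1 of 11 tested members passed, a decrease, beside 2.70% of all tested regions. It lay 21 kb upstream of Cxcr4, the CXCL12 receptor that holds HSCs in the marrow. Its scores were 8.41 to 16.1 in young (median 12.5) and 0 to 10.2 in aged libraries (median 5.18), a change of −1.19 ± 0.23 (SE, limma adjusted p = 0.00362). It passed in 8 of the 12 fits that left out 1 library and not with list length in the fit (limma adjusted p = 0.0561). Cxcr4 had 8 members, and the neighbour 23 kb upstream was called in all 12 libraries with scores of 12.5 to 28.4 in young and 11.1 to 32.6 in aged libraries. A further region, 113 kb from Cxcr4 and nearest to the pseudogene Gm29599, had scores of 18.6 to 44.6 in young and 4.34 to 16.9 in aged libraries and changed by −1.53. The region near Slamf1, which encodes the HSC marker CD150, was at 8.50 to 26.6 in young and 19.7 to 38.1 in aged libraries and did not pass.

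Of 17 tested members at genes linked to HSC ageing, 2 passed, both lower, beside 2.70% of all tested regions. The region 5.80 kb upstream of Vwf, the von Willebrand factor gene that marks platelet-biased HSCs, had scores of 9.99, 11.3 and 8.30 in young WT, 8.13, 8.53 and 6.72 in young Mlkl-/-, 0, 3.34 and 0 in aged WT and 0, 3.65 and 7.33 in aged Mlkl-/-. The highest aged score lay above the lowest young one, and the rank changed by −1.09 ± 0.21 (SE, limma adjusted p = 0.00287). The region 40.5 kb downstream of Runx3, a RUNX factor gene, was called with scores of 3.71 to 17.8 in all young libraries and in no aged one (−1.06 ± 0.23, SE, limma adjusted p = 0.00871), and it passed in 1 of the 12 fits that left out 1 library. Neither region passed with list length in the fit (limma adjusted p = 0.0735 and 0.0616). The strongest members of the list, near Lmna, Plscr2 and Nupr1, were in all 12 lists and did not pass.

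Genes of AP-1 and other immediate-early factors had the highest share of shared members among the 10 gene lists besides that of HSC markers, 38.8% of 49 in all 12 lists. None of 30 tested passed, with a median change of −0.12. With 2.70% of all tested regions past the threshold, a count of 0 in a list of this size or smaller is no result about the list, here and for the lists that follow. Fos had 10 members and Egr1 9, among the highest counts for any gene, where the median gene with a member had 1. The region 18.5 kb upstream of Fos had scores of 30 to 55.8 in young and 29.4 to 56.2 in aged libraries. At inflammation and cell death genes none of 25 tested passed. The nearest to the threshold of the strongest 3, 41.8 kb from Birc3, an inhibitor of apoptosis, was at 14.3 to 26.7 in young and 25.3 to 46.8 in aged libraries, a change of 0.41 ± 0.11 (SE, limma adjusted p = 0.0277).

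Lineage genes had few members. None of the tested members passed for megakaryocyte (4 tested), erythroid (6), myeloid (10) or B cell genes (2). Changes were above 0 for 0 of 10 myeloid (median −0.28), 1 of 6 erythroid (−0.24) and 4 of 4 megakaryocyte members (0.26). They were above 0 for 2 of 2 B cell (0.25) and 4 of 9 T and NK cell members (−0.01). Over all tested regions 49.1% were above 0, and over tested members 52.3%, with medians of −0.01 and 0.02. Of the 10 myeloid members 4 lay nearest to Fcgr3. Members are not replicates, and these signs were not tested. The lowest of the strongest 3 myeloid members lay 24.9 kb from Ly6c2, a monocyte surface gene. It had scores of 33.8 to 81.2 in young and 26.8 to 48.6 in aged libraries (−1.0 ± 0.23, SE, limma adjusted p = 0.0114). Of T and NK cell genes 1 of 9 tested passed, beside 2.70% of all tested regions. It was a region nearest to the antisense gene Gm13256 and 25.8 kb from Gata3, a T cell and HSC transcription factor gene, at 0 in 5 of 6 young libraries, 11.2 in Young Mlkl-/- 2 and 11.2 to 18.1 in all aged libraries. It changed by 1.12 ± 0.24 (SE, limma adjusted p = 0.00653) and passed in 1 of the 12 fits that left out 1 library. As to the sort, the starts of Kit and Hlf were open in all 12 lists, those of Procr in 9, Ly6a and Esam in 6, Mecom in 1 and Slamf1 in none. No start was open in any list for 10 of 15 T and NK, 8 of 11 B, 11 of 17 myeloid, 8 of 15 erythroid and 5 of 15 megakaryocyte genes, and the number open in a library ranged over 0 to 4, 1 to 3, 2 to 5, 3 to 7 and 7 to 10. The part of other cells in the age differences was not tested.

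The DNA under the members resembled that of intronic regions. Median GC content within 100 bp of the summit was 49.8% in both, 47.3% in intergenic regions beyond 50 kb and 63.2% within 1 kb of a start. The ratio of observed to expected CpG was 0.239 in members and 0.739 near starts. Members in all 12 lists had 52.2% GC and members in 1 list 48.8%, and 3.96 and 11.3% of them lay mostly in sequence marked as repeat. Members that ranked higher with age had 46.8% GC, those that ranked lower 50.2% and the other tested members 50.7%. Over regions of all classes the median was 46.8% for the higher, 51.2% for the lower and 54.2% for all tested.

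The 100 bp on either side of each summit, read on both strands, were scanned for 15 motifs. An ETS match (AGGAAGT) was present in 17.8% of members and 16.1% of all regions, an AP-1 match (TGANTCA) in 12.2 and 10.2%, a RUNX match (TGTGGTT) in 11.9 and 10.3%, and a GATA match (AGATAAG) in 4.88 and 3.99%. The shares in intronic regions were 19.5, 12.4, 13.02 and 4.87%, close to those of members. A CTCF match was present in 4.38% of members, 3.26% of intronic regions and 0.686% of regions near starts, and a GC box (GGGCGG) in 8.88, 7.54 and 47.96%. In members of 1 list, of 2 to 11 lists and of all 12, the shares were 17.8, 16.7 and 21.8% for ETS, 10.3, 11.5 and 15.1% for RUNX, 11.03, 12.2 and 13.9% for AP-1, 3.78, 4.85 and 6.17% for GATA and 3.84, 5.09 and 2.59% for CTCF. Every PU.1 match (GAGGAAGT) is also an ETS match.

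The motif matches of members past the threshold for age were set beside those of the other tested members, and the differences were not tested. Among the 197 higher, 107 lower and 8359 other tested members, an AP-1 match was present in 20.3, 25.2 and 13.4%, and a RUNX match in 23.4, 17.8 and 13.7%. An ETS match was present in 21.3, 28.04 and 19.2%, and a GATA match in 8.12, 11.2 and 5.63%. A PU.1 match was present in 6.09, 16.8 and 7.66%, and a MEIS match (TGACAG) in 18.8, 26.2 and 14.6%. A C/EBP match (TTGCNNCAA) was present in 5.08, 0.935 and 1.60%, or 10, 1 and 134 members. Over all tested regions, higher and lower, the shares were 18.6 and 18.5% for AP-1, 20.5 and 15.6% for RUNX and 6.06 and 14.8% for PU.1. For C/EBP they were 2.80 and 1.06%, and for MEIS 13.98 and 26.6%, beside 1.39 and 13.9% of all tested regions. A GC box was present in 2.54, 2.80 and 11.2% of the same 3 sets of members, which differed in GC content as given above. None of the 304 members held a CTCF match, while 341 of the other tested members did. Over all regions past the threshold, 0.311% of the higher and 0.264% of the lower ones held a CTCF match, beside 2.29% of all tested regions. Tested members with a CTCF match were in all 12 equal-length lists in 14.1% of cases and those without in 28.1%. How often a member was called went with how often it passed. Of 2736 tested members in up to 5 equal-length lists, 0.110% ranked higher and 0.146% lower. In over 5 and up to 8 lists the shares were 6.86 and 4.14% of 1763, and in all 12 they were 1.67 and 0.544% of 2389. The part of call frequency in the motif shares, CTCF included, was not tested. Of the higher, lower and other tested members, 14.2, 20.6 and 16.4% held an E-box (CAGCTG) and 5.58, 4.67 and 4.19% an IRF match. A STAT match (TTCCNGGAA) was present in 2.03, 0 and 0.885%, and a HOX match (TGATTTAT) in 1.02, 0 and 1.11%. A CRE match (TGACGTCA) was present in 1.02, 0 and 0.562%, and an NF-kB match in 0.508, 1.87 and 0.419%, or 1, 2 and 35 members. A match is a stretch of letters and not a bound site.

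**Figure D5:**
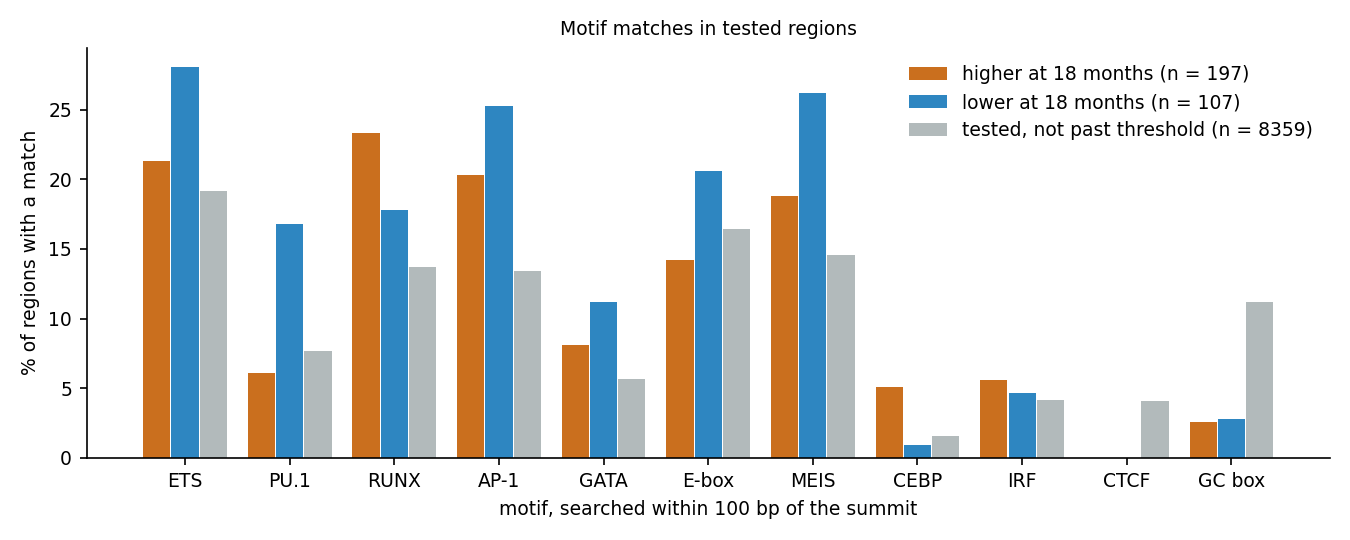
Bars give the percent of tested regions with a motif match within 100 bp of the summit for regions higher (orange) or lower (blue) at 18 months and for the other tested regions (grey), for 11 motifs on the x axis. CTCF has no bar in the first 2 sets and stands at 4.08% in the third, and PU.1 stands at 16.8% in the regions lower at 18 months and at 6.09% in those higher.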

How the data were processed

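The authors aligned ATAC-seq reads to mm10 with Bowtie2 (2.5.3) and called peaks in each library with MACS2 (2.2.7.1), and bedtools (2.31.0) is named in the submitters' notes. The deposited lists hold 1 position per summit with a score, read here as the −log10 of the q-value that MACS2 writes. The scores go down to about 2.00, below the cutoff in the stated methods, so this reading is not certain, and the fit across regions uses ranks. They hold no reads, so depth is unknown and counting error was not estimated. Samples were grouped by the labels.

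Summits with a score of at least 3 were widened by 250 bp on each side, merged over lists and placed on GENCODE M21 annotation. Each list was reduced to its 35696 highest summits. Scores were ranked within a list over all regions and turned into normal scores, and those found in 3 or more lists entered limma 3.58.1 (R 4.3.3; 1 mean per group, 7 contrasts, moderated variances with a trend, Benjamini-Hochberg adjusted p under 0.01 over all tested regions). Single values per library were compared by exact permutation of the labels of 1 factor within the other. The method was also run on simulated lists that were all cut to the same length. That run does not cover lists whose length differs with age. Python 3.11.15, numpy 2.4.6, scipy 1.17.1, pandas 2.3.3, pysam 0.24.0 and matplotlib 3.10.9 were used.

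The members and gene lists were chosen with earlier results of these data known. Named were the 10 members of highest mean rank, up to 6 per direction and age contrast that passed without overlap between groups, by size of change, the 2 of lowest p for genotype and for the difference in age change, members at listed genes that passed or were the strongest 3, the 5 stretches with most members, up to 6 members called at 1 age alone, and the member nearest to Mlkl. Egr1, Gata2 and Lmo2 as counts and the per-library sequence measures were chosen after their values were seen. Alternatives were another score minimum, window, list length, filter, scale, threshold and fit, a list-length covariate and leaving out libraries. Fits with Y-gene summits and with autosomes alone were added after seeing the data.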

Additional observations from a re-analysis of the deposited data

Results flagged for a closer look

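The rule for members left out summits with a score under 3. In intergenic space more than 1 kb and up to 50 kb from a start the 12 lists held 4663 such summits, between 235 and 596 per list, and 85.9% of them lay inside member regions. They entered no comparison, and the signal stood out only because it lay outside the measurement used here.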

How the results depend on the processing

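The 304 members past the threshold for age became 611 with lists of unequal length, 202 with percentiles, 20 with list length as a covariate, 106 with Y-gene summits as a covariate, 70 in the tagged libraries and 853 at an adjusted p under 0.05 (limma). Leaving out 1 library gave 202 to 317. The 26 members in WT and the 20 in Mlkl-/- became 17 and 12 at a score of at least 5, 100 and 77 with unequal lists, 49 and 32 with at least 6 lists, 0 and 0 with percentiles, 0 and 1 with list length as a covariate, 0 and 1 in the tagged libraries, 0 and 0 when each genotype was fitted separately, and 229 and 158 at an adjusted p under 0.05. In WT windows of 100 bp gave 15, and in Mlkl-/- Y-gene summits as a covariate gave 0. Leaving out 1 library gave 0 to 30 in WT and 0 to 19 in Mlkl-/-. The cause was not tested. No alternative gave a member past the threshold for genotype or for the difference in age change (limma).

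Replicate numbers did not pair the samples: deviations of same-numbered samples correlated between −0.30 and 0.13 (median −0.01). With the replicate block the 3 age comparisons gave 234 members over both genotypes, 6 for WT and 5 for Mlkl-/-.

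The age difference in the share of the list, 1.44 points, ranged from 0.777 to 2.05 with 1 library left out and passed 0.05 without Young Mlkl-/- 2, at 2.05. The genotype difference ranged from −0.125, without Young Mlkl-/- 2, to 1.15. The difference in age change, −0.54, was 1.03 in the tagged libraries and ranged from −1.87 to 0.668 with 1 library left out, above 0 without Young Mlkl-/- 2 (0.668) or Aged WT 3 (0.0646). The distance of members from intronic regions ranged from 0.00572 to 0.0125 with 1 library left out and was 0.0128 in the tagged libraries. A covariate for the presence of summits on chromosome Y was constant over the 12 lists and was not run.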
